A study of Homo sapiens with 3 samples.

Results

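The regions described here are the YTHDC1 ChIP-seq peaks whose midpoints lay more than 200 and up to 1000 bases upstream of a protein-coding start site, upstream being read in the sense of the gene. Each midpoint was placed against the nearest canonical start, which is the start of the 1 transcript per gene that GENCODE release 44, lifted to GRCh37 (hg19), marks as canonical. By this rule 707 of the 6368 peaks, 11.1%, were upstream peaks, and they belonged to 702 of the 19881 protein-coding genes with a canonical start. Position alone chose them, so their strength, width and sequence are free to vary. The annotation around them is bound in part by the rule, since each peak is assigned to its nearest canonical start.

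YTHDC1 was precipitated from A549 cells, an established human lung adenocarcinoma line, in 3 libraries that the labels place in 1 group. No treated, depleted or otherwise altered group and no input library was analysed here, so no difference between conditions can be given. Peaks were called on the replicates pooled, the labels do not say whether the replicates were separate cultures, and the table holds no read counts and no value per replicate. Depth per replicate is therefore unknown, and every interval below covers counting error over peaks or genes of 1 pooled set, not the spread between cultures.

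YTHDC1 is the nuclear reader of N6-methyladenosine (m6A), the methyl mark that METTL3 and METTL14 place on RNA while it is being made, and it is known for roles in splicing, export and the control of chromatin-bound transcripts. A ChIP peak for an RNA-binding protein marks DNA that was crosslinked near it and carries no information on which RNA, if any, lay between them. Many mammalian promoters start transcription in both directions from neighbouring sites, and the stretch just upstream of a coding start can hold an alternative first exon of the same gene, the start of a divergent long non-coding RNA (lncRNA), or no annotated start.

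The sequences of 7 upstream peaks are shown first, 200 bases around each midpoint, because the upstream peaks differed most from their mirror image downstream in base composition and in which other starts they lay at. All are from GRCh37, written 5′ to 3′ on the strand of the gene named. Capitals mark exact matches to short motifs: the GC box GGGCGG, the CCAAT box and the ETS motif CCGGAAG, which are searched on both strands and so also appear as their complements, and GGACT, a common m6A context, on the gene strand only. The upstream peaks of LZTS3, which encodes a leucine zipper protein, and GPBP1, which encodes a protein binding GC-rich promoters, were the strongest of those at a lncRNA start on the opposite strand, and both windows are GC-rich.
LZTS3, chr20:3154307-3154506, minus strand: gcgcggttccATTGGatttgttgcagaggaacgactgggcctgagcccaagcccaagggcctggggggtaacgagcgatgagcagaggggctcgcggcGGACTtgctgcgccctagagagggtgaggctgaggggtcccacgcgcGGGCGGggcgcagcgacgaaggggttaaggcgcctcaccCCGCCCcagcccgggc
GPBP1, chr5:56469454-56469653, plus strand: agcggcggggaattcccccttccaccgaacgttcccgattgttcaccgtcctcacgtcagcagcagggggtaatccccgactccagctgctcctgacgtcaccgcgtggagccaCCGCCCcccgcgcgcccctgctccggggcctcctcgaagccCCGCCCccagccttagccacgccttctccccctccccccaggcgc

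The next windows lie at another start of the gene itself or of a second coding gene. FAM20B, a kinase that phosphorylates xylose in the proteoglycan linker, and AGBL5, a carboxypeptidase acting on tubulin, had a second annotated start of their own within 200 bases of the midpoint. RAMAC, the activating subunit of the mRNA cap methyltransferase, had its upstream peak 6 bases from a start of HOMER2. The AGBL5 window holds 40.5% GC and none of the 9 motifs, against 57.5% GC and 1 GC box in the FAM20B window.
FAM20B, chr1:178994695-178994894, plus strand: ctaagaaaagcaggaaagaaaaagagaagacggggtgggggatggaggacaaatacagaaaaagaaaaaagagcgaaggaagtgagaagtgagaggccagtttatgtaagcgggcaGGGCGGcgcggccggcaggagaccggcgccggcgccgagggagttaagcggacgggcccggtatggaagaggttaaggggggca
AGBL5, chr2:27273829-27274028, plus strand: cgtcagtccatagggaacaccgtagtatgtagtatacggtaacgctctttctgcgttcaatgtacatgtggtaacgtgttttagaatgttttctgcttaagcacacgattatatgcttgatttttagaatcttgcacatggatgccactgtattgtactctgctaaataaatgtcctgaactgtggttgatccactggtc
RAMAC, chr15:83654526-83654725, plus strand: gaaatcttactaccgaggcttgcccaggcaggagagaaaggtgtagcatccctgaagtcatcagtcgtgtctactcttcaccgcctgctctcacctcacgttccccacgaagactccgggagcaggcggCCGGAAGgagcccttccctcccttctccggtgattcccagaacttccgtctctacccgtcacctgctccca

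The last windows lie at no other annotated start. FOXI3, a forkhead transcription factor of the embryonic ectoderm, had the strongest upstream peak of the set, in a window of 34.0% GC, and LGI4, a secreted protein of myelinating Schwann cells, had a window of 47.5% GC. Neither holds any of the 9 motifs.
FOXI3, chr2:88752814-88753013, minus strand: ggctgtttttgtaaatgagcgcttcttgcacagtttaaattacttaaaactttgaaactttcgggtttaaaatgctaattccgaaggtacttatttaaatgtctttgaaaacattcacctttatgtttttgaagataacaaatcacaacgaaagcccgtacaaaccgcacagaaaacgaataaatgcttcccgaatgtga
LGI4, chr19:35626553-35626752, minus strand: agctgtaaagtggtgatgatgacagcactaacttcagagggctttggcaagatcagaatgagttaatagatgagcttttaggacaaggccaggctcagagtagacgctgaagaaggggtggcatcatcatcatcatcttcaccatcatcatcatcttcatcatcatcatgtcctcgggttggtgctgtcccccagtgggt

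Upstream peaks thinned out with distance from the start. Their midpoints lay a median of 431 bases upstream (quartiles 308.5 and 600.5 bases), and the number per 100 bases was 164 between 200 and 300 bases, 120 between 400 and 500 bases, 60 between 600 and 700 bases and 34 between 900 and 1000 bases, the lower bound of each bin left out. Over the same bins downstream of the start there were 442, 180, 84 and 46 peaks, so upstream peaks were fewer in every bin. In all, 707 peaks were upstream, against 1364 at the mirrored distances downstream and 1145 in the core, within 200 bases of the start. Of the upstream peaks, 434 (61.4%, 95% Wilson interval 57.7 to 64.9) lay within 500 bases, against 953 of the downstream peaks (69.9%, 67.4 to 72.2).

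**Figure D1:**
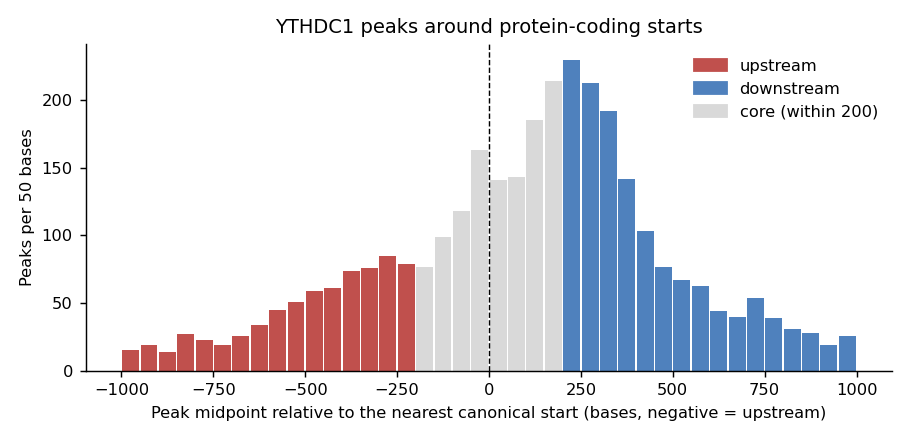
Number of YTHDC1 peaks per 50 bases (vertical axis) against where the midpoint lay in bases from the closest canonical protein-coding start (horizontal axis, negative values upstream). The 707 upstream peaks (red) decline with distance and are outnumbered by the 1364 downstream peaks (blue), and grey bars are the 1145 core peaks.

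Nearly all were separate from the start they were assigned to. The whole peak lay upstream in 663 of 707 (93.8%, 91.7 to 95.3), with a median gap of 259 bases between its near edge and the start, and 418 (59.1%) kept a gap of 200 bases or more. The other 44 (6.22%) reached over the start, and these were the wider ones, with a median width of 678.5 bases against 329 bases for the peaks wholly upstream. ZNF446, one of the zinc finger genes, had such a peak, 1139 bases wide, with its midpoint 209 bases upstream. The farthest edge of any upstream peak was 1538 bases from its start.

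The bounds of the rule cut through a continuous run of peaks near the start and through sparse ones far from it. Just inside the near bound were the peaks of PPP1R16A and PUM3, both at the first base past the bound of 200, and of GRB2, the growth factor receptor adaptor, at 202 bases. Just outside it were those of ACD, a subunit of the telomere shelterin complex, at 200 bases, and of ZNF623 and LRR1 at 199 bases. Their strengths, as −log10 q, were 1.63, 2.61 and 1.02 inside and 1.53, 1.73 and 1.27 outside. At the far bound the last members were those of SUZ12, a core subunit of Polycomb repressive complex 2, and HEXA, the lysosomal hexosaminidase alpha subunit, both at 990 bases. For 2 members another start was equally near.

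**Figure D2:**
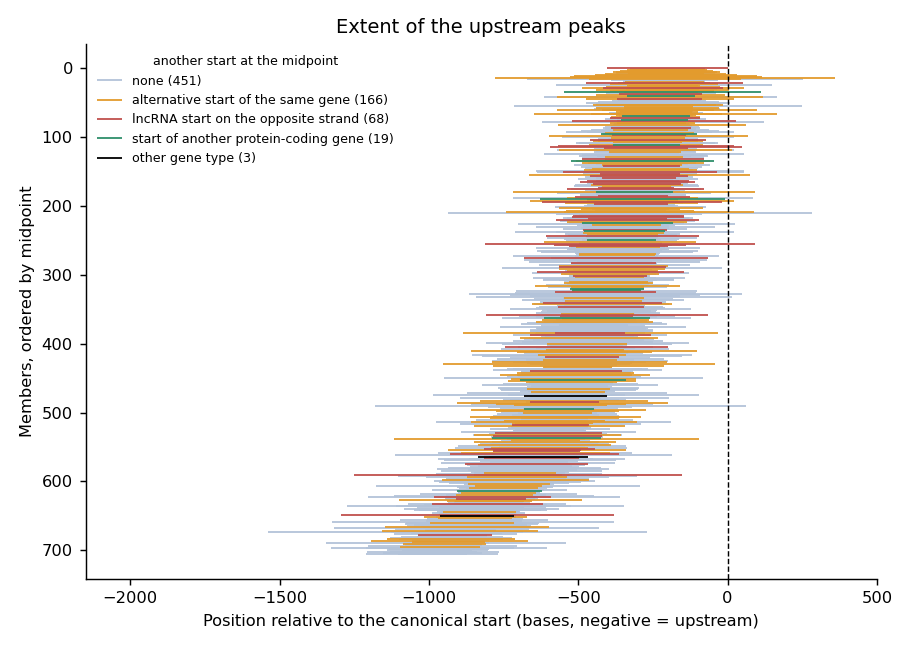
Each of the 707 upstream peaks drawn as a line from its far to its near edge, in bases relative to the canonical start (horizontal axis, negative values upstream, dashed line at the start), ordered by midpoint down the page and coloured by the other annotated start within 200 bases of the midpoint. Lines crossing the dashed line are the 44 peaks over the start, and peaks at another start are commoner near the top, close to the canonical start.

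Strength was read from the peak caller's own score, taken here as −log10 of the q value. The upstream peaks had a median of 1.30 (95% interval 1.24 to 1.36), against 1.37 (1.33 to 1.41) downstream and 1.38 (1.34 to 1.44) in the core. A q under 0.05 was reached by 354 of 707 upstream peaks (50.1%, 46.4 to 53.7), beside 52.1% of all peaks of the series. The share was 54.5% downstream, a difference of -4.40 percentage points (95% Newcombe interval -8.92 to 0.131), which did not exceed counting error. In the core it was 55.7%, a difference of -5.65 points (-10.3 to -0.974), which did.

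Very strong peaks were rare in the upstream, downstream and core sets alike. A −log10 q over 10 was reached by 2 upstream peaks, FOXI3 at 11.8 and SNX16, an endosomal sorting nexin, at 10.3. That is 0.283% of the upstream peaks, beside 0.733% downstream, 0.0873% in the core and 0.691% of all peaks. The differences from downstream and core did not exceed counting error. The next upstream peaks were FAM20B at 9.83, TLX2, a homeobox factor of the neural crest lineage, at 8.82, and AGBL5 at 7.81. LGI4 (6.57), LZTS3 (6.55), PEX13 (6.45), ZNF446 (6.30), GPBP1 (6.25) and PALM2AKAP2 (6.12) followed, PEX13 being a membrane protein of the peroxisomal import machinery. NARF, a nuclear protein that binds prelamin A, was the 12th at 4.99. These peaks did not share one kind of sequence. The 11 peaks over 6 had windows of 34.0% to 74.5% GC. Of these 11, 7 lay at another annotated start, beside 256 of all 707 upstream peaks (36.2%) and 13 of the 34 with a strength from 3 to 6.

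SNX16 stands apart among them by its sequence. Of the stretches of 31 bases in the 200 bases around its midpoint, 72.9% occur elsewhere in the genome, in a median of 57 copies, and the windows of the other 11 hold none. Reads from repeated stretches cannot be assigned to a single site, and how the authors treated such reads is not given in the sources used here. Among all upstream peaks 8 (1.13%, 0.575 to 2.22) had windows of which 50% or more was repeated, against 5 (0.367%) downstream, 1 (0.0873%) in the core and 100 (1.57%) in the whole series. The part of this in the calls was not tested.

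Upstream peaks were also narrower. Their median width was 341 bases (327 to 360), against 375 bases (363 to 386) downstream and 367 bases (353 to 377) in the core. Of the upstream peaks 48.5% were wider than the series median of 348 bases, against 56.6% downstream, a difference of -8.08 points (-12.6 to -3.55). Widths ran from 226 to 1269 bases. The widest upstream peaks were those of ENTREP2 (1269 bases), NXT1, a cofactor of mRNA export (1242 bases), ZNF546 (1220 bases), ZNF446 (1139 bases), RFX3, a transcription factor of ciliated cells (1102 bases), and AGBL5 (1020 bases). Of these, ZNF446 and AGBL5 were also among the 12 strongest, while RFX3 had a −log10 q of 1.29. Across the 707 peaks, which share 1 pooled library, width and −log10 q were weakly related (Spearman's rank correlation 0.15), and distance from the start and −log10 q hardly at all (rank correlation -0.06).

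Upstream peaks were lower in GC and CpG on average than downstream and core peaks. The 200 bases around the midpoint held 61.0 ± 10.0% GC in the upstream peaks (SD, n = 707), against 66.0 ± 9.31% downstream (n = 1364) and 68.6 ± 7.15% in the core (n = 1145). More than 60% GC was found in 56.2% of upstream peaks and 77.1% of downstream peaks, a difference of -20.9 points (-25.2 to -16.6). The ratio of observed to expected CpG, a measure that is high in CpG islands, was 0.709 ± 0.237 upstream, against 0.766 ± 0.200 downstream and 0.850 ± 0.170 in the core. A ratio over 0.6 was found in 69.3% of upstream and 81.6% of downstream peaks, a difference of -12.3 points (-16.3 to -8.37). The lowest GC of an upstream window was 29.5% and the highest 82.5%, this one at PYGO2, a cofactor of Wnt signalling with a plant homeodomain finger.

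Upstream peaks were richer in GC and CpG than upstream sequence in general. Windows of the same length centred 600 bases upstream of all 19881 canonical starts held 50.3 ± 11.6% GC and had a CpG ratio of 0.444 ± 0.287, against 59.9 ± 9.98% and 0.682 ± 0.251 for the 102 upstream peaks between 600 and 800 bases. Among the upstream peaks GC declined with distance, with a mean of 62.8% between 200 and 400 bases, 60.4% between 400 and 600 bases, 59.9% between 600 and 800 bases and 57.0% between 800 and 1000 bases. The downstream peaks had means of 67.7%, 64.9%, 63.7% and 59.8% in the same bins, so the upstream mean was lower in each of the 4 bins, with the smallest gap farthest from the start. The SD over peaks, 9.30 to 11.5% GC upstream, was larger than these gaps, so single peaks of the 2 sides overlap widely.

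**Figure D3:**
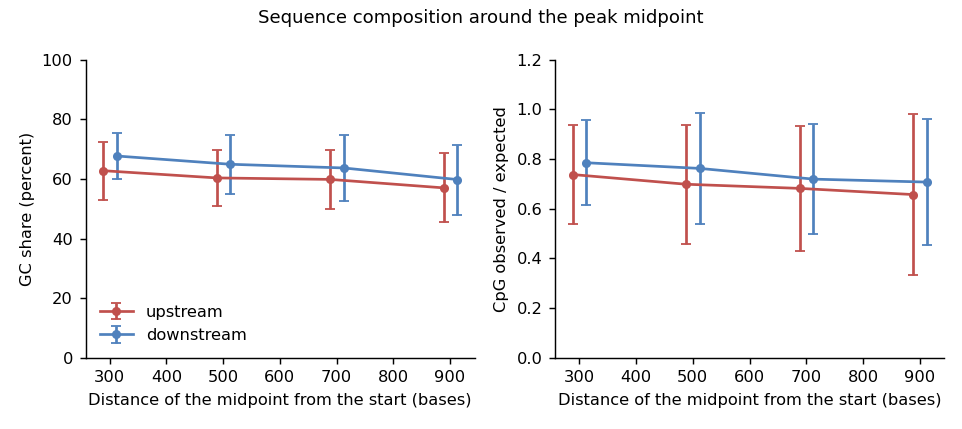
GC share in percent (left) and ratio of observed to expected CpG (right) of the 200 bases around the peak midpoint, by distance from the canonical start in bases. Points are means and bars are SD over peaks for upstream (red) and downstream (blue) peaks in 4 bins of 200 bases. Upstream means lie below downstream means in each bin, 62.8% against 67.7% GC nearest the start, while the bars overlap.

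Motifs were counted in the same windows. A GC box, the site of SP1 and related factors, was present in 38.05% of upstream windows (34.5 to 41.7), against 44.6% downstream, 56.8% in the core, 34.2% of all peaks and 16.0% of the windows 600 bases upstream of all starts. The CCAAT box was present in 14.1%, against 11.0% downstream and 21.0% of those windows. TATAAA was present in 4.53% of upstream windows, against 1.98% downstream, a difference of 2.55 points (0.972 to 4.44), and in 10.8% of the windows upstream of all starts. The ETS motif was present in 4.53% of upstream windows and 16.8% of core windows, a difference of -12.2 points (-14.9 to -9.52). In downstream windows it was present in 5.94%, a difference of -1.41 points (-3.31 to 0.710), which did not exceed counting error. TGACTCA, the AP-1 motif, was present in 2.26% of upstream windows, against 1.17% downstream, 1.22% in the core and 2.38% of the windows upstream of all starts. The difference from downstream was 1.09 points (-0.0382 to 2.54), which did not exceed counting error. Of all peaks 6.00% had it, and of the peaks outside the upstream, downstream and core sets 10.7%. GGACT on the gene strand was present in 20.2% of upstream windows, against 19.5% downstream and 16.9% of the windows upstream of all starts. CACGTG (5.09%), TGTTTAC (1.56%) and TGACNNNGC (8.49%), searched on both strands, differed from downstream windows by less than counting error. The windows upstream of all starts are centred at a fixed 600 bases, while the upstream peaks lay at a median of 431 bases. Shares in these 2 sets are therefore not matched for distance. A match is only a run of letters, and whether any factor binds there was not measured.

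The annotation showed that many upstream peaks lay at a start other than the one they were assigned to. Another annotated transcript start lay within 200 bases of the midpoint in 256 of 707 (36.2%, 32.8 to 39.8), and no other start in 451 (63.8%). At the point 431 bases upstream of all canonical starts, the median distance of the upstream peaks, the share with another start was 21.8%. Downstream peaks had one in 43.2%, a difference of -6.97 points (-11.3 to -2.52), where the share at 431 bases downstream of all starts was 24.8%. Upstream peaks close to the start had another start most often, 54.9% between 200 and 300 bases and 17.6% between 900 and 1000 bases. Which of these starts is used in A549 cells was not analysed here.

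The most frequent other start belonged to the same gene. An alternative start of the gene itself lay at 166 upstream peaks (23.5%, 20.5 to 26.7), against 37.7% downstream, with 10.9% upstream and 20.6% downstream at 431 bases from all starts. SNX16, FAM20B and AGBL5 were the strongest of these. PEX13 had an alternative start 15 bases, ZNF446 3 bases and NARF 4 bases from the midpoint, so that these peaks sat on an annotated start although they were upstream of the canonical one. Their median −log10 q was 1.22, against 1.32 for upstream peaks at no other start, and the intervals of the medians (1.15 to 1.36 and 1.24 to 1.40) overlap.

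A lncRNA start on the opposite strand was more frequent at upstream than at downstream peaks. It lay at 68 upstream peaks (9.62%, 7.66 to 12.01), against 2.57% of downstream peaks, a difference of 7.05 points (4.86 to 9.55), and 1.66% of core peaks. At 431 bases from all canonical starts the share was 3.95% upstream and 1.76% downstream, so the annotation as a whole is asymmetric in the same direction. In the bin nearest the start, up to 400 bases, it was 13.4% of upstream peaks (10.1 to 17.6), against 2.07% downstream (1.28 to 3.34). Between 400 and 600 bases it was 6.02% upstream (3.55 to 10.0) and 3.88% downstream (2.24 to 6.66). These intervals overlap, and the upstream one includes the 3.95% at 431 bases from all starts. Between 600 and 800 bases it was 9.80% upstream (5.41 to 17.1) and 1.69% downstream (0.578 to 4.86). Between 800 and 1000 bases it was 4.00% upstream and 3.81% downstream. Counting such starts whatever other start was also present gave 89 upstream peaks. No upstream peak had a lncRNA start on the same strand within 200 bases (upper limit of the 95% interval 0.540%), and 12 of the 19881 points 431 bases upstream of all starts fell in that class.

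These 68 peaks lay at 68 different lncRNA genes, of which 22 are named as divergent transcripts, 14 as antisense and 29 carry only an Ensembl identifier. After LZTS3 and GPBP1, the strongest was at SRCAP, the ATPase that places the histone variant H2A.Z, with a −log10 q of 3.87. POLG, the catalytic subunit of the mitochondrial DNA polymerase, had a peak of 3.36 whose midpoint was 183 bases from the start of POLG-DT. Among the others were HOXC9 at HOXC-AS1 (2.31), WDR5, a subunit of histone H3 lysine 4 methyltransferase complexes, at WDR5-DT (1.64) and RFX3 at RFX3-DT (1.29, the lncRNA start 21 bases from the midpoint). The class had a median −log10 q of 1.42 (1.25 to 1.64), and 57.4% of it (45.5 to 68.4) passed a q of 0.05, against 50.8% (46.2 to 55.4) of upstream peaks at no other start, intervals that overlap.

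Starts of a second coding gene were few, at 19 upstream peaks (2.69%, 1.73 to 4.16), against 2.20% downstream and 6.31% at 431 bases upstream of all starts. The rule itself lowers this share, since a peak nearer to the second gene's canonical start is assigned to that gene. RAMAC at HOMER2 (2.72), SF3B6, a subunit of the U2 snRNP, at FAM228B (2.15) and TECPR1, an autophagosome tethering protein, at BRI3 (1.98) were the strongest. Only 13 upstream peaks (1.84%) lay between their start and a canonical start on the opposite strand within 1000 bases upstream of it. Of all canonical starts, 9.44% had an opposite one that close. That share includes pairs of starts too close together for a midpoint between them to meet the rule. The 2 shares are therefore not like for like, and the part of the rule in the difference was not tested. In 3 upstream peaks the other start was that of a small RNA or pseudogene, namely MIR3124 at SH3BP5L (1.97), SNORD60 at TRAF7 (1.28) and RNU4-8P at ACTR1B (0.922).

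**Figure D4:**
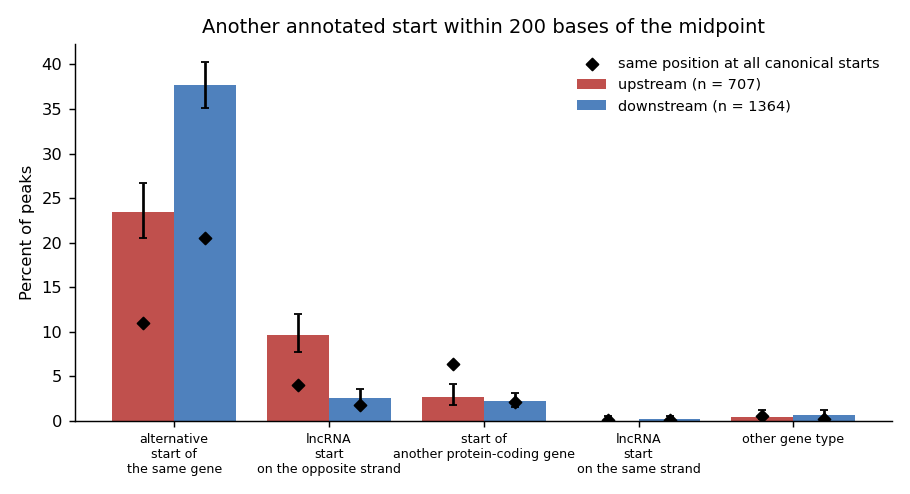
Percent of upstream (red, n = 707) and downstream (blue, n = 1364) peaks with another annotated start within 200 bases of the midpoint, by the kind of start, with 95% Wilson intervals. Black diamonds give the share at points 431 bases upstream or downstream of all canonical starts, a fixed distance that is not matched to those of the peaks. Opposite-strand lncRNA starts lay at 9.62% of upstream and 2.57% of downstream peaks.

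By gene models, the midpoint lay in an exon in 265 upstream peaks (37.5%), in an intron in 170 (24.05%) and outside any gene in 272 (38.5%). It was inside another transcript of the assigned gene in 224, some of which also lay inside a different gene. In 211 it was inside a different gene and not the assigned one. Upstream peaks were spread over all autosomes and the X chromosome. Chromosome 17 held 67 of them (9.48%, 7.53 to 11.9) and 513 of all peaks (8.06%), a share within that interval.

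Most genes with an upstream peak had no core or downstream peak, and few protein-coding genes have either kind. Of the 702 genes, 623 (88.7%, 86.2 to 90.9) had neither a core nor a downstream peak. A core peak was present at 27 (3.85%), beside 5.76% of all protein-coding genes, and a downstream peak at 52 (7.41%), beside 6.78%. No gene had all 3 kinds. There were 5 genes with 2 upstream peaks each. ERBB3, a receptor of the EGF receptor family, had them at 829 bases (2.16) and 267 bases (0.765). SRCAP had them at 217 bases (3.87) and 857 bases (1.49), the farther one at an alternative start of its own. RNASE4, a secreted ribonuclease, had peaks at 988 bases (2.93) and 345 bases (1.15), the nearer one 38 bases from a start of ANG, the gene of angiogenin. WNT2, a Wnt ligand, had peaks at 208 bases (1.47) and 928 bases (1.36), and ZBED5 had peaks at 488 bases (2.19) and 931 bases (1.18).

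The genes with an upstream peak were then counted over 30 lists of genes of known function. An upstream peak was present at 3.53% of all protein-coding genes, and at 106 of the 2358 distinct genes on the lists (4.50%, 3.73 to 5.41). The lists overlap in part, most hold few genes, and they are described by their counts with no test of enrichment.

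Lists on chromatin and transcription control held the highest share and the largest number. Among histone methyltransferases and demethylases 8 of 64 (12.5%, 6.47 to 22.8) had an upstream peak, with EHMT1, which methylates lysine 9 of histone H3, at 3.03 and PRDM11 at 2.64 as the strongest. Among chromatin remodellers and histone acetylation genes 5 of 44 (11.4%, 4.95 to 23.98) did, led by SRCAP (3.87) and CHD4, the ATPase of the NuRD complex (3.73). Among AP-1 and immediate early genes 5 of 36 (13.9%, 6.08 to 28.7) did, with NR4A1, an orphan nuclear receptor, at 3.76 and KLF6, a zinc finger factor, at 2.28. Of 32 pausing and elongation genes of RNA polymerase II, 3 (9.38%, 3.24 to 24.2) did, an interval that includes the background of 3.53%. They were led by HEXIM2, which holds back P-TEFb, at 4.01 and SUPT5H, a subunit of the pausing factor DSIF, at 0.931. The ZNF zinc finger genes gave the largest number, 28 of 511 (5.48%, 3.82 to 7.81), led by ZNF446 (6.30) and ZNF524 (2.42).

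In the m6A pathway itself, 2 of 23 writers, readers and erasers (8.70%, 2.42 to 26.8) had an upstream peak, the readers IGF2BP1 (0.743) and YTHDF3 (0.735), and neither passed a q of 0.05. Of the 49 genes on the list of splicing factors 1 did, SF3A3 of the U2 snRNP (1.36). SF3B6, described above, is not on that list, which does not hold every splicing gene. Homeobox genes of the HOX clusters and the sine oculis family had 3 of 45, with HOXC9 (2.31) and HOXB5 (1.12). TGF-beta, SMAD and ID genes had 2 of 36, SMAD6, an inhibitory SMAD (3.21), and BMPR1A, a receptor for bone morphogenetic proteins (1.54).

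Upstream peaks were at 3 of 78 mitochondrial ribosomal protein genes, with MRPL51 (3.38) and MRPL12 (2.41) the strongest, and at 3 of 71 translation factors, with EIF3F (2.89) and EEF1G (1.82). They were at 14 of 341 solute carriers (4.11%), led by SLC26A6 (2.01) and SLC7A2 (2.00), and at 1 of 46 complex I genes, NDUFA4 (2.301). Glycolytic enzymes had 1 of 21, HK2 (0.874), and heat shock proteins 1 of 69, DNAJC27 (0.650).

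Among cell cycle and DNA repair genes, the interval of each of the 4 lists includes the background of 3.53%. FANCA, a subunit of the Fanconi anaemia core complex (2.16), was the only one of 57 checkpoint and double-strand break repair genes (1.75%, 0.310 to 9.29), and PARP2 (1.89) the only one of 39 genes of base, nucleotide and mismatch repair (2.56%, 0.454 to 13.2). DNA replication genes had 3 of 41 (7.32%, 2.52 to 19.4), with ORC5 (1.14) and POLD1 (1.06), and cyclins and cyclin-dependent kinases 3 of 55 (5.45%, 1.87 to 14.9), with CDK13 (0.874) and CCNE1 (0.759). MAP kinase and dual-specificity phosphatase genes had 3 of 67, with DUSP10 (2.50) and MAP2K5 (1.11), TRIM and RNF ubiquitin ligases 3 of 160, with RNF187 (2.00) and TRIM52 (1.38), and keratins, integrins and epithelial adhesion genes 2 of 128, EPCAM (1.41) and ITGB1 (1.25). NRF2 target genes had 1 of 30, GSR (1.10), the glutathione reductase gene. For p53 target genes it was 3 of 30 (10.0%, 3.46 to 25.6), with BCL2L1 (1.05) and FDXR (1.04) the strongest. That interval also includes the background of 3.53%.

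Several lists had no upstream peak. None was found at 81 cytoplasmic ribosomal protein genes (0%, upper limit of the 95% interval 4.53%), of which 20 had a downstream peak and 7 a core peak. None was found at 64 replication-dependent histone genes (upper limit 5.66%), of which 38 had a downstream peak. None was found at 39 proteasome subunits (upper limit 8.97%), 29 actins and tubulins (11.7%) or 23 genes of the integrated stress response (14.3%). For each of these 5 lists the interval includes the background of 3.53%.

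**Figure D5:**
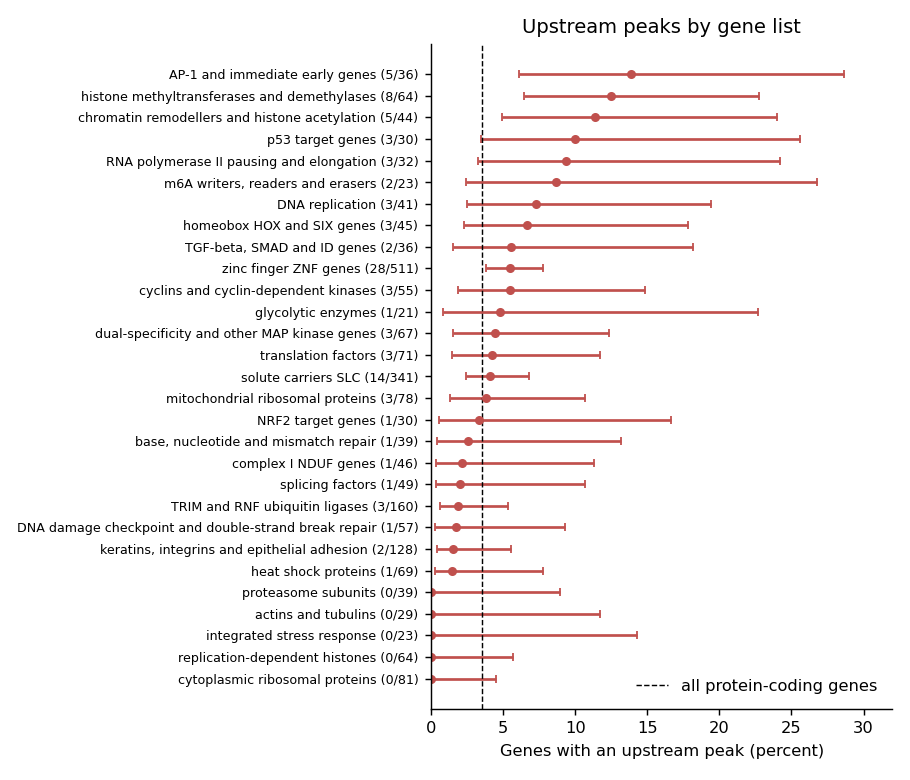
Percent of the genes of each of 29 lists with an upstream peak (horizontal axis), with 95% Wilson intervals and, in brackets, genes with an upstream peak over genes on the list. The dashed line marks the 3.53% of all protein-coding genes, and the interval of most lists spans it.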

How the data were processed

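Chromatin from A549 cells was precipitated for YTHDC1 in 3 libraries, read here as 1 group. The authors aligned reads to hg19 (their notes name BWA, the methods name Bowtie2), merged the replicates and ran MACS2 in broad mode at a q of 0.1 and a broad cutoff of 0.25. They deposited 1 peak table, whose value column was read as −log10 q, since its lowest value, 0.610, lies just above the 0.602 that corresponds to the broad cutoff. Whether an input library was used in calling is not given in the sources used here. No depth per library can be derived from peaks, so precision is limited by the number of peaks.

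Midpoints were placed against canonical starts of GENCODE release 44 on GRCh37 in Python 3.11.15 (pandas 2.3.3, pysam 0.24.0, scipy 1.17.1), with a placement step tested on simulated data. A peak was assigned to 1 nearest start, downstream peaks are the mirror of the rule and core peaks lie within 200 bases. Other starts, GC, CpG and motifs were taken from 200 bases around the midpoint, other starts being any annotated start within 200 bases, counted in 1 class each in the order same gene, other coding gene, opposite lncRNA, same-strand lncRNA, other. Repeated sequence was counted from stretches of 31 bases. Shares have 95% Wilson and differences 95% Newcombe intervals, and medians have order-statistic intervals. No test over samples is possible with 1 pooled set. Members and lists were chosen with earlier results of these data known. Genes named are the 12 strongest and 6 widest, those nearest the bounds, those with 2 peaks, up to 3 for each kind of other start and up to 2 for each list. PYGO2, POLG, and HOXC9, WDR5 and RFX3 among the lncRNA partners, were named after their values were seen. The strength of each named peak is given in brackets as −log10 q. The counts of 1 of the 30 lists are not reported here.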

Additional observations from a re-analysis of the deposited data

How the results depend on the processing

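Of 63 values computed under other settings, 44 stayed within the 95% interval of the value reported (for the number of peaks, within 1.5 times it) and 19 did not. With the starts of all protein-coding transcripts, the share of upstream peaks at another start was 20.3% and that with a core peak at the same gene 9.77%. With peaks of q under 0.05 alone, 354 upstream peaks remained in the count, with a median width of 362.5 bases, a core peak for 2.26% and a peak at 2.29% of listed genes. With midpoints more than 200 and up to 500 bases upstream there were 434, with 40.8% at another start, 62.1% GC and a peak at 2.76% of listed genes. Both settings keep fewer peaks, and the share of all protein-coding genes was not computed under them. The 2.29% and 2.76% of listed genes therefore cannot be set beside the 3.53% of all genes, which is for all upstream peaks. The share at another start was 19.2% with a window of 100 bases, 77.2% with 500 bases and 65.1% for any overlap of the peak with the window. The share with a core peak was 1.56% with a core of 100 bases and 10.0% with 500 bases, and a GC box was present in 19.4% of windows of 100 bases. The settings for the lncRNA class were chosen after seeing the data. With a window of 100 bases it held 4.53% of upstream peaks, 2.55 points above downstream (interval 0.972 to 4.44), and counted whatever other start was present it held 12.6%. The difference from downstream peaks kept its sign in all 8 settings.

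No paired analysis was possible because the replicates were pooled into 1 peak set of 1 group, and for the same reason no fit without a replicate was run.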
